A study of Mus musculus with 4 samples.

Results

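In tissue macrophages, heme taken up from dying red cells and other cells is broken down by heme oxygenase 1 (Hmox1), and the iron set free is stored in ferritin or leaves the cell through ferroportin (Slc40a1). The transcription factor NRF2, freed when cells meet oxidants or electrophiles, binds antioxidant response elements and turns on Hmox1, ferritin, glutathione and thioredoxin genes. The growth factor Igf1 and the chemokine Ccl8, which attracts monocytes and lymphocytes, are products of several kinds of macrophage. Described here are 191 wells, each holding 1 sorted myeloid cell of the mouse brain, in which the summed transcripts of these 4 genes passed a set level. They come from 804 kept wells, of 1536 wells on 4 plates.

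Kept wells had 1000 or more counts once mitochondrial genes and ERCC spike-ins (synthetic RNA added to every well) were set aside, with ERCC under 50% of all counts. It was called gated when Slc40a1, Hmox1, Igf1 and Ccl8 together had at least 3 counts and at least 1000 CPM, that is, counts scaled to a common total, here of its endogenous counts. The kept wells that missed the gate are called other wells. The wells were thus chosen by the levels of these 4 genes, and every gene was measured in the same cells. Differences between gated and other wells are given as descriptions, with no test.

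Each plate was sorted as either BMDM (macrophages of bone marrow origin that reach the tumor through the blood) or microglia, the macrophages native to the brain. The brains bore lung cancer metastases and came from Balb/C athymic nude mice (CAnN.Cg-Foxn1nu/Crl), a strain without mature T cells. All plates share this strain and the tumor. The 4 groups, 1 plate each, are BMDM with whole brain radiation therapy (WBRT), BMDM without WBRT, microglia with WBRT and microglia without WBRT. WBRT was 5 doses of 2 Gy, labelled d3 with no starting point given. Plates with WBRT carry the tumor stage label not stratified and plates without it the label small, so treatment, stage and plate cannot be told apart. No animals are named, so a plate is 1 sample and the spread between mice is unknown.

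Gated wells were found on every plate, and their share was highest in microglia with WBRT. They made up 57 of 262 kept wells of BMDM with WBRT (21.8%, 95% interval 16.9 to 27.2%) and 32 of 234 of BMDM without WBRT (13.7%, 9.55 to 18.8%). In microglia with WBRT they were 78 of 151 (51.7%, 43.4 to 59.9%), and in microglia without WBRT 24 of 157 (15.3%, 10.05 to 21.9%). These exact binomial intervals cover counting error only. At the edge of the gate, the lowest gated well stood at 1066, 1018, 1018 and 1001 CPM of the 4 genes on the plates in the order above. The highest other well with at least 3 counts stood at 991, 937, 999 and 960 CPM. Between 500 and 1000 CPM lay 30, 41, 33 and 36 other wells, and between 1000 and 2000 CPM lay 9, 15, 18 and 10 gated wells, with no gap at the threshold.

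Most of the gate's counts were Hmox1. In gated wells Hmox1 gave 73.4% of the counts of the 4 genes in BMDM with WBRT, 90.4% in BMDM without WBRT, 79.2% in microglia with WBRT and 95.7% in microglia without WBRT. Hmox1 alone would have passed 41, 28, 66 and 24 of the gated wells in the same order, and 24, 27, 35 and 22 of them would have failed without it. Igf1 had a UMI (a unique molecular identifier, which marks 1 captured transcript) in 71.9% of gated wells of BMDM with WBRT and 18.8% without WBRT, and in 66.7% and 8.33% of gated microglia wells with and without WBRT. Ccl8 was seen in 47.4% and 15.6% of gated BMDM wells, and in 30.8% and 4.17% of gated microglia wells, again with WBRT first in each pair. The other wells differed with WBRT too. Igf1 was seen in 41 of 205 other wells of BMDM with WBRT and 8 of 202 without, and Ccl8 in 29 and 5 of them. In other microglia wells Igf1 stood at 31.8 CPM with WBRT and had 0 counts without, and Ccl8 stood at 10.6 and 14.8 CPM. All 4 genes met in 16 gated wells of BMDM with WBRT and 15 of microglia with WBRT, and in none of either plate without WBRT. The gated wells without WBRT are thus wells with Hmox1 for the most part: 11 of 32 BMDM wells and 15 of 24 microglia wells held only 1 of the 4 genes.

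**Figure D1:**
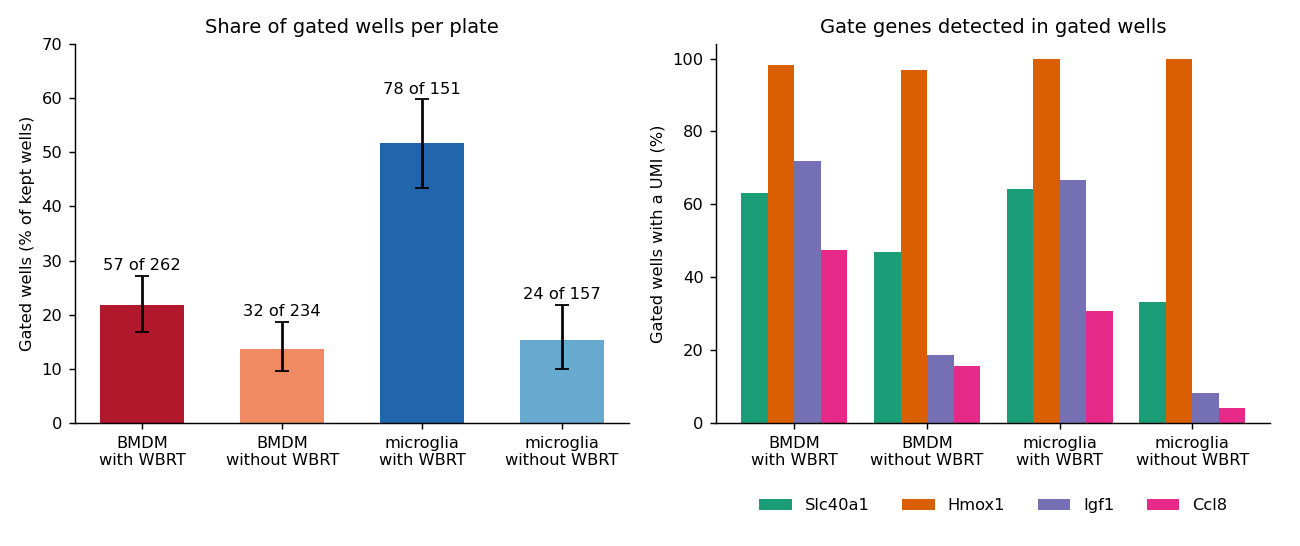
Left, gated wells as a percent of kept wells on each plate, with exact 95% binomial intervals and the number of wells. Right, percent of gated wells with at least 1 UMI of each gate gene. The share of gated wells is highest in microglia with WBRT (51.7%), and Igf1 and Ccl8 are seen in more of the gated wells on both plates with WBRT, as Igf1 is in the other wells, while Hmox1 is seen in at least 96.9% of gated wells on every plate.

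The 4 genes went together in part. When wells were gated on Hmox1, Igf1 and Ccl8 alone, ferroportin (Slc40a1, chromosome 1, 45908070 to 45926532, GRCm38.p6) stood at 675 against 25.7 CPM in the remaining kept wells of BMDM with WBRT and at 292 against 21.8 CPM in BMDM without WBRT. It stood at 687 against 86.4 CPM in microglia with WBRT and at 138 against 28.1 CPM in microglia without WBRT, so it was higher on all 4 plates. Gated on the other 3 genes, Hmox1 (chromosome 8, 75093618 to 75100593) stood at 4996 against 687 CPM in BMDM with WBRT and 10314 against 1238 CPM in microglia with WBRT. The 5 and 2 wells that passed in this way on the plates without WBRT are too few to describe. Igf1 (chromosome 10, 87858265 to 87937047), gated on the other 3, stood at 511 against 61.2 CPM in BMDM with WBRT and 565 against 130 CPM in microglia with WBRT. Without WBRT it stood at 49.2 against 11.02 CPM in BMDM, and had 2 counts against 0 in microglia. Ccl8 (chromosome 11, 82115185 to 82116799), gated on the other 3, stood at 560 against 63.2 CPM in BMDM with WBRT and 213 against 19.8 CPM in microglia with WBRT. On the plates without WBRT it stood at 31.4 against 19.4 CPM in BMDM and 9.17 against 14.8 CPM in microglia, values that rest on 7 and 1 counts in the gated wells. Igf1 was thus higher on every plate in wells gated on the other genes, at low levels without WBRT, while for Ccl8 this is clear on the plates with WBRT alone.

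Summed levels of identity genes set gated wells apart from other wells, in part through few genes. The summed level of 14 microglia identity genes was 4110 CPM in gated and 3841 CPM in other wells of BMDM with WBRT, and 6183 against 3631 CPM in BMDM without WBRT. In the microglia sort it was lower in gated wells, at 9771 against 16067 CPM with WBRT and 9993 against 11809 CPM without WBRT. The summed level of 14 blood-derived macrophage genes went the other way. It was 3334 against 6469 CPM in BMDM with WBRT and 2389 against 5965 CPM in BMDM without WBRT, and then 1665 against 623 CPM in microglia with WBRT and 645 against 290 CPM in microglia without WBRT. Gated BMDM wells thus held less of the blood-derived list than other BMDM wells on both plates. The higher sum in gated microglia wells rests largely on galectin 3 (Lgals3) and vimentin (Vim). With WBRT these genes gave 256 and 133 of 507 list counts in gated wells, and 36 and 49 of 176 in other wells. Without WBRT they gave 40 and 11 of 70 in gated wells, and 45 and 15 of 196 in other wells. Counted by well, the microglia list exceeded the macrophage list in 50.9% of gated and 23.4% of other wells of BMDM with WBRT, and in 68.8% and 26.2% in BMDM without WBRT. In microglia with WBRT it did so in 76.9% of gated and 98.6% of other wells, and in microglia without WBRT in 95.8% and 99.2%. Gated wells still differed between sorts: those of BMDM with WBRT held 3334 CPM of the macrophage list, those of microglia with WBRT 1665 CPM.

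**Figure D2:**
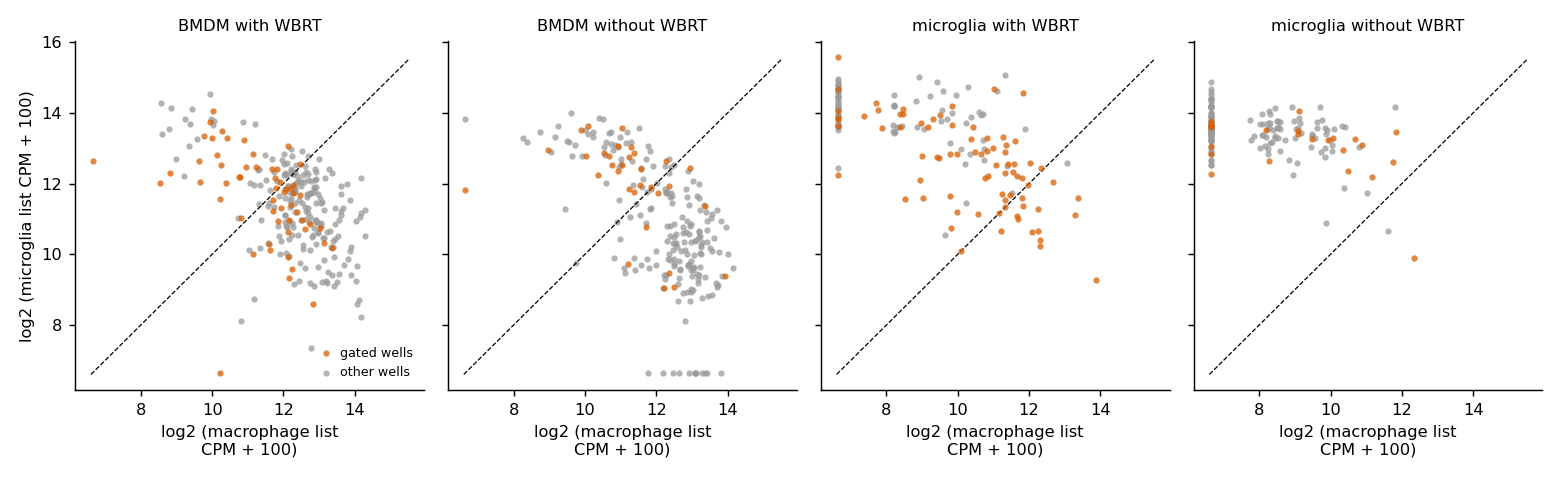
Each point is 1 kept well, placed by the summed CPM of 14 blood-derived macrophage genes (horizontal) and 14 microglia identity genes (vertical), both as log2 of CPM + 100. Gated wells are orange and other wells grey, and the dashed line marks equal values. In BMDM plates more gated wells lie above the line (50.9% and 68.8%) than other wells (23.4% and 26.2%), while in microglia with WBRT fewer gated wells do (76.9% against 98.6%).

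Single identity genes differed in how far they followed the lists. Tmem119, a membrane protein of homeostatic microglia, was lower in gated wells of all 4 plates, at 90.1 against 213, 107 against 132, 437 against 868 and 516 against 581 CPM in plate order. P2ry12, the purinergic receptor that steers microglial processes, stood at 345 against 698 CPM in microglia with WBRT but at 396 against 371 CPM in microglia without WBRT. On the other side, Ccr2, the receptor that draws monocytes out of the blood toward Ccl2, stood at 197 against 1232 CPM in BMDM with WBRT and 124 against 510 CPM in BMDM without WBRT. It had 0 counts in gated wells of both microglia plates. Itga4, an integrin subunit that marks blood-derived macrophages of the brain, stood at 136 against 263 and 57.6 against 344 CPM in BMDM with and without WBRT. In the microglia plates it stood at 42.7 against 81.4 and 36.8 against 32.5 CPM. Galectin 3 and vimentin, an intermediate filament protein, were the higher members of the macrophage list in gated microglia wells: Lgals3 stood at 841 against 128 CPM with WBRT and 368 against 66.5 CPM without, and Vim at 437 against 174 and 101 against 22.2 CPM. Lgals3 was higher in gated BMDM wells as well, at 663 against 365 and 556 against 255 CPM, so it does not set the sorts apart. Ccr2, Plac8, Ahnak and Ly6c2 were at 0 in gated microglia wells with WBRT, and the last 3 were at 0 in the other wells of that plate as well.

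Across all genes, 2157 were measured, meaning at least 100 CPM on either side of the comparison on at least 2 plates. A low gene can thus count as measured through its higher side alone. The ratio used is log2 of CPM + 20, gated over other wells, with the 4 gate genes left out of the totals, which understates differences of low genes. Its mean over the 4 plates, each weighted alike, passed 1 in 46 genes (2.13% of those measured) and was below -1 in 22 genes (1.02%). Without wells of under 1000 CPM of the nuclear RNA Malat1 the 46 became 18, and leaving out 1 plate gave 9 to 47 lower genes. In all 4 plates 260 genes were higher (12.1%) and 275 lower (12.7%). On single plates, genes past 1 were 3.22%, 6.97%, 5.38% and 7.29% of those measured in plate order, and genes below -1 were 2.54%, 11%, 4.69% and 3.39%. The median over all measured genes was near 0 on every plate, between -0.05 and 0.03. Values after ± are the SD over the 4 plates.

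NRF2 target genes were among the higher genes. The 14 measured members of the NRF2 antioxidant and metallothionein list had a median of 0.87 (plate medians 1.09, 0.98, 0.57 and 0.61), and 6 passed 1: Gclm, Txnrd1, Srxn1, Prdx1, Mt2 and Sqstm1. None was below -1, and 7 were higher on all 4 plates. Without wells of under 1000 CPM of Malat1 the list median was 0.50. Gclm, the modifier subunit of the enzyme that limits glutathione synthesis, stood at 222 against 26.2 CPM in BMDM with WBRT and 169 against 18.7 CPM in BMDM without WBRT. It stood at 167 against 28.3 CPM in microglia with WBRT and 82.9 against 10.3 CPM in microglia without WBRT, a mean of 2.10 ± 0.29. The plates are alike for Gclm, but in microglia without WBRT it rests on 9 counts in 4 gated wells against 7 counts in other wells. There 1 well held 44.4% of the gated counts. Srxn1, which restores oxidised peroxiredoxins, stood at 295 against 44.0, 103 against 20.9, 200.2 against 35.4 and 138 against 32.5 CPM in plate order (1.87 ± 0.35). Prdx1, a peroxiredoxin that reduces hydrogen peroxide, stood at 1855 against 530.3 CPM in BMDM with WBRT, 1569 against 562 in BMDM without WBRT, 2490 against 464 in microglia with WBRT and 2264 against 638 CPM in microglia without WBRT (1.85 ± 0.39). On the last plate 1 gated well held 49.1% of the Prdx1 counts. After each well was thinned to 1000 UMIs, Prdx1 was seen in 68.4% of gated and 42.0% of other wells of BMDM with WBRT and in 76.9% against 35.6% in microglia with WBRT. Mt2, a metal-binding metallothionein, had a mean of 1.48 ± 1.15, but 1 gated well held 56.8% of its gated counts in BMDM without WBRT and 52.4% in microglia without WBRT. Nfe2l2, the gene of NRF2 itself, was not higher as a rule: it stood at 309 against 608 CPM in BMDM with WBRT and 371 against 234 CPM in microglia with WBRT.

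The stretches before the starts of 3 of these genes are shown because they are the list members among the 15 highest genes that hold an antioxidant response element core. The core searched was TGACNNNGC on both strands, in the 250 bases before each transcript start of RefSeq (GRCm38.p6). It is in capitals, and the sequences run 5′ to 3′ on the gene's strand, ending before the first start of the gene in RefSeq or GENCODE M21.
Gclm, chr3:122245307-122245486, plus strand: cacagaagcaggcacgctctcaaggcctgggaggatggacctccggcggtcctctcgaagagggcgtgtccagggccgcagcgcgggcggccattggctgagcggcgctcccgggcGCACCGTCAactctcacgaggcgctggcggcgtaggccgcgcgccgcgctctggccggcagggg
Prdx1, chr4:116685349-116685543, plus strand: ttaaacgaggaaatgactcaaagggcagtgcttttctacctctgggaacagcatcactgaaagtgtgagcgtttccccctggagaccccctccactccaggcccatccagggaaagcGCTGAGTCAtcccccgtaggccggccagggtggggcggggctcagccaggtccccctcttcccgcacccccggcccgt
Mt2, chr8:94172368-94172617, plus strand: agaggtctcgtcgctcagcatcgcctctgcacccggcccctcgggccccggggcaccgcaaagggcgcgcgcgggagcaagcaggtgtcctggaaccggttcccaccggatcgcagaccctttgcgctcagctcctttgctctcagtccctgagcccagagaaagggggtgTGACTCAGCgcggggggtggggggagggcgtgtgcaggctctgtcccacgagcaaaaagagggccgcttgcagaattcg
In Gclm and Prdx1 the core reads on the opposite strand. It begins 64 bases before the end of the stretch shown in Gclm, 78 in Prdx1 and 79 in Mt2. In Prdx1 and Mt2 it overlaps the AP-1 motif TGACTCA. The core stood in 7 of the 16 list members matched to the RefSeq windows (43.8%), against 10.2% of 32851 windows and 11.5% of 27025 genes. The list was drawn up from genes known to answer to NRF2, so this share describes the list and not these cells, and no binding was measured.

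Of the iron and heme list, 10 members were measured, with a median of 0.63 (plate medians 0.86, 1.28, 0.60 and 0.41), and 4 passed 1: Slc48a1, Ftl1, Blvrb and Fth1. The median was 1.07 without the plate of microglia without WBRT, 1.02 with a filter of 200 CPM and 0.21 with no filter. Of the 10, 7 had means above 0 and 3 had means below 0. Slc48a1 (chromosome 15, 97784365 to 97792692), which carries heme out of the phagolysosome to the cytosol where Hmox1 acts, stood at 511 against 93.7 CPM in BMDM with WBRT and 363 against 39.7 CPM in BMDM without WBRT. In microglia with WBRT it stood at 443 against 85.0 CPM and in microglia without WBRT at 276 against 59.2 CPM (2.24 ± 0.33). Thinned to 1000 UMIs, it was seen in 36.8% against 7.32%, 25% against 2.97%, 37.2% against 6.85% and 20.8% against 5.26% of wells. Blvrb, a biliverdin reductase gene, stood at 178 against 76.4, 223 against 32.0, 167 against 38.9 and 120 against 47.3 CPM (1.49 ± 0.57). The ferritin light chain gene Ftl1 stood at 29750 against 10565 CPM in BMDM with WBRT, 22162 against 5785 in BMDM without WBRT, 35327 against 9527 in microglia with WBRT and 15478 against 7401 CPM in microglia without WBRT (1.59 ± 0.41). The heavy chain gene Fth1 had a mean of 1.27 ± 0.33. Both ferritin genes have many near-identical copies in the genome, so how their reads were counted is uncertain. Over single wells, the gene whose level followed Hmox1 most closely was Ftl1, with Spearman correlations of 0.57 (262 wells), 0.40 (234), 0.74 (151) and 0.32 (157). These points share plate, depth and total, and the values are given as a description.

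Lipid genes were higher as well. All 10 measured members of the lipid handling list had means above 0, with a median of 0.75, and Lpl, Fabp5 and Lipa passed 1. The plate medians were 0.51, 1.29, 1.11 and 0.19. Lpl, the lipase that frees fatty acids from lipoproteins, had the highest mean of all measured genes (2.26 ± 1.15). It stood at 1231 against 85.4 CPM in BMDM with WBRT, 1103 against 134 in BMDM without WBRT, 1397 against 525 in microglia with WBRT and 212 against 79.9 CPM in microglia without WBRT, with the larger ratios in the BMDM sort. Fabp5, a fatty acid binding protein, stood at 950.4 against 382, 1238 against 164, 1614 against 338 and 654 against 172 CPM (2.01 ± 0.63), and 1 other well held 62.3% of the other wells' counts in microglia with WBRT. Lipa, the lysosomal acid lipase, stood at 912 against 307, 527 against 179.7, 568 against 216 and 461 against 124 CPM (1.50 ± 0.17), and its plates varied least among the 15 highest genes. Thinned to 1000 UMIs, Lpl was seen in 42.1% of gated and 6.34% of other wells of BMDM with WBRT and in 25% against 9.02% in microglia without WBRT.

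**Figure D3:**
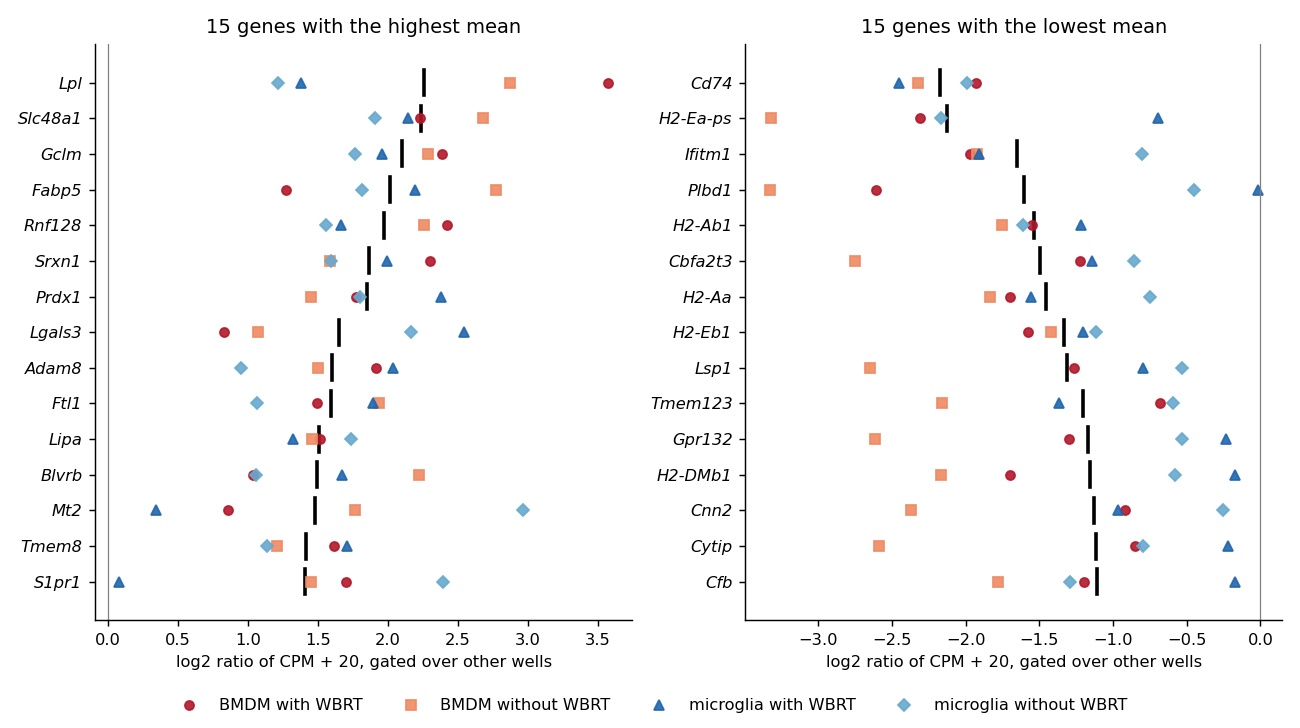
Log2 ratio of CPM + 20, gated over other wells, for the 15 genes with the highest and the 15 with the lowest mean among those that went 1 way on all 4 plates. Each symbol is 1 plate and the black bar the mean of 4 plates. The antioxidant genes Gclm, Srxn1 and Prdx1 and the heme carrier Slc48a1 lie past 1 on every plate, while Mt2 and S1pr1 spread from under 0.4 to over 2, and the MHC class II genes lead on the low side.

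Other genes among the 15 highest were Rnf128, a ubiquitin ligase gene, with a mean of 1.97 ± 0.43, Lgals3, given above (1.65 ± 0.83), and Adam8, a membrane protease of myeloid cells. Adam8 stood at 638 against 154, 358 against 114, 453 against 95.6 and 138 against 62.1 CPM in plate order (1.60 ± 0.49). Tmem8 (1.41 ± 0.29) and S1pr1, a sphingosine 1-phosphate receptor (1.41 ± 0.97), complete the 15. For S1pr1, 1 well held 84.8% of the other wells' counts in microglia with WBRT, where the ratio was 0.08.

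Genes of border-associated macrophages, which line the meninges and vessels of the brain, were also higher. Of 10 list members 5 were measured, with a median of 0.87 (plate medians 0.67, 1.05, 1.09 and 0.86). Mrc1 and Pf4 passed 1. All 5 were higher on all 4 plates, as were 12.1% of all measured genes. In microglia without WBRT this rests on few counts. Gated against other wells, Mrc1 had 5 against 11 counts there, Pf4 4 against 1 and F13a1 3 against 1. Stab1 had 12 against 52 and Dab2 12 against 65. The mannose receptor Mrc1 stood at 712 against 337 CPM in BMDM with WBRT, 321 against 135 in BMDM without WBRT, 135 against 49.6 in microglia with WBRT and 46.0 against 16.3 CPM in microglia without WBRT (1.05 ± 0.13). The ratio was alike on all plates, though the level itself was low in the microglia sort. The chemokine gene Pf4 stood at 914 against 314, 41.2 against 22.0, 121 against 24.8 and 36.8 against 1.48 CPM (1.27 ± 0.50). Its values in BMDM without WBRT rest on 10 against 20 counts. Folr2, a folate receptor of tissue macrophages, was under the limit for a measured gene but went the same way, at 189.8 against 57.6 CPM in BMDM with WBRT and 95.2 against 42.5 CPM in microglia with WBRT. Lyve1 and Cd163, which define part of this class, stood at 9.73 and 21.9 CPM in gated wells of BMDM with WBRT and 13.1 CPM each in gated wells of microglia with WBRT, and Cd209f had 0 counts in both. Each of these values rests on 1 to 3 wells.

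Genes of disease-associated microglia, scavenging and lysosomes followed in smaller steps, and not alike on all plates. Of 15 measured disease-associated genes 13 had means above 0 and Lpl and Spp1 passed 1, with a list median of 0.46. The median over all measured genes was -0.0045. The list's plate medians were 0.38, 1.17, 0.19 and 0.001, and in microglia without WBRT 8 members were higher and 7 lower. Spp1, a secreted phosphoprotein, stood at 4074 against 1660, 10683 against 1944, 3290 against 2906 and 3453 against 2218 CPM in plate order, and 1 gated well held 34.7% and 37.7% of its gated counts in BMDM with and without WBRT. Of 7 measured efferocytosis and scavenger receptor genes, 6 had means above 0 and Gas6 and Msr1 passed 1. Gas6, the bridge between dying cells and TAM receptors, stood at 414 against 196, 805 against 203, 585 against 375 and 617 against 398 CPM. Msr1, a scavenger receptor for modified lipoproteins, stood at 846 against 479, 449 against 122, 571 against 301 and 193 against 118 CPM. Of 15 measured lysosome genes 14 had means above 0, but only Lipa passed 1 and the median was 0.36. The plate medians were 0.37, 0.96, 0.32 and -0.02, and in microglia without WBRT 7 members were higher and 8 lower. Of 10 measured glycolysis and hypoxia genes 9 had means above 0 and none passed 1. Arg1, an enzyme of alternative activation, had a mean of 1.41 that rests on single cells: 1 gated well held 86.2% of its gated counts in BMDM with WBRT and 83.4% in BMDM without WBRT.

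On the low side MHC class II genes led, whose products show antigen to CD4+ T cells. All 6 measured members were lower in gated wells of all 4 plates, with a median of -1.39, and Cd74, H2-Ab1, H2-Aa, H2-Eb1 and H2-DMb1 were below -1. Of all measured genes, 12.7% were lower on all 4 plates and 1.02% were below -1. Cd74, the invariant chain that guides class II molecules, stood at 2797 against 10701 CPM in BMDM with WBRT and 1829 against 9215 CPM in BMDM without WBRT. H2-Aa stood at 2629 against 8571 and 3379 against 12083 CPM on these plates. The median well held 4974 against 27450 CPM of the class II list with WBRT and 11162 against 22550 CPM without, and 91.2% and 90.6% of gated wells lay below the median of the other wells.

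In the microglia sort single wells held much of the class II counts. Cd74 stood at 45.9 against 341 CPM with WBRT and 82.9 against 389 CPM without WBRT, but 1 other well held 57.4% and 77.9% of the other wells' Cd74 counts on these plates. The list summed to 433 against 1399 CPM with WBRT and 755 against 1787 CPM without WBRT. When that well was left out, a choice made after seeing the data, the other wells held 759 CPM with WBRT and 687 CPM without WBRT, so the gated wells remained lower with WBRT (433 CPM) and not without WBRT (755 CPM). The median well held 401 against 697 CPM with WBRT and 704 against 672 CPM without WBRT. After thinning, Cd74 was seen in 10.3% of gated and 10.96% of other microglia wells with WBRT and in 8.33% against 8.27% without WBRT. With that well left out on every plate, the list median was -0.96.

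Dendritic cells, which carry much class II, were unevenly spread in the BMDM sort. Wells marked by a list of 10 dendritic cell genes (at least 3 counts and 1000 CPM) were 2 of 57 gated and 19 of 205 other wells of BMDM with WBRT, and 3 of 32 gated and 87 of 202 other wells of BMDM without WBRT. Without these wells the class II list still summed to 9947 against 27411 CPM in BMDM with WBRT and 9852 against 32933 CPM in BMDM without WBRT. Monocyte genes were lower in gated BMDM wells too: a list of 8 summed to 643 against 2564 CPM with WBRT and 606 against 2099 CPM without WBRT. Plac8, a gene of monocytes, stood at 31.6 against 328 and 189 against 923 CPM in these 2 plates, and Plbd1, a phospholipase-like gene of monocytes and dendritic cells, at 26.8 against 265 and 41.2 against 595 CPM. Ifitm1, an interferon-induced membrane protein, stood at 127 against 553 and 189 against 776 CPM. Lsp1, an actin-binding protein of leukocytes, Cnn2, Cytip, Gpr132, Tmem123, Cbfa2t3 and Cfb were among the 15 lowest genes too, with means from -1.11 to -1.49. The part of monocyte genes in the class II result was not tested.

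Several groups showed no common direction. Microglia identity genes had a median of -0.09, with none of 11 past 1 either way, and plate medians of -0.08, 0.47, -0.71 and -0.17. The 12 measured blood-derived macrophage genes had a median of -0.73, from -0.96 and -1.59 in the BMDM plates to 0.21 and 0.00 in the microglia plates. Interferon response genes were lower in gated wells of 3 plates (-0.76, -1.03 and -0.36) and higher in microglia with WBRT (0.75), where their levels were low. Irf7, a master regulator of interferon genes, stood at 58.4 against 179 CPM in BMDM with WBRT and 65.6 against 28.3 CPM in microglia with WBRT. CC chemokines other than Ccl8 had a median of 0.28, with none of 7 past 1. Ccl2, a neighbour of Ccl8 in the gene cluster on chromosome 11, came nearest at 0.99 ± 0.68, with 346 against 99.1 and 575 against 189.8 CPM in BMDM with and without WBRT, and 395 against 255 and 700.3 against 595 CPM in microglia. For Ccl2, 1 gated well held 48.4% of the gated counts in BMDM without WBRT and 49.3% in microglia with WBRT. Igfbp4 was the only measured member of a list of 9 partners of Igf1, at 0.52 ± 0.74. Immediate early genes, which often mark handling of cells, had a median of 0.05, and proliferation genes were mostly too low to measure. Cdkn1a, the p53 target that halts the cell cycle, stood at 1066 against 1195, 672 against 659, 2347 against 2001 and 1637 against 936 CPM.

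**Figure D4:**
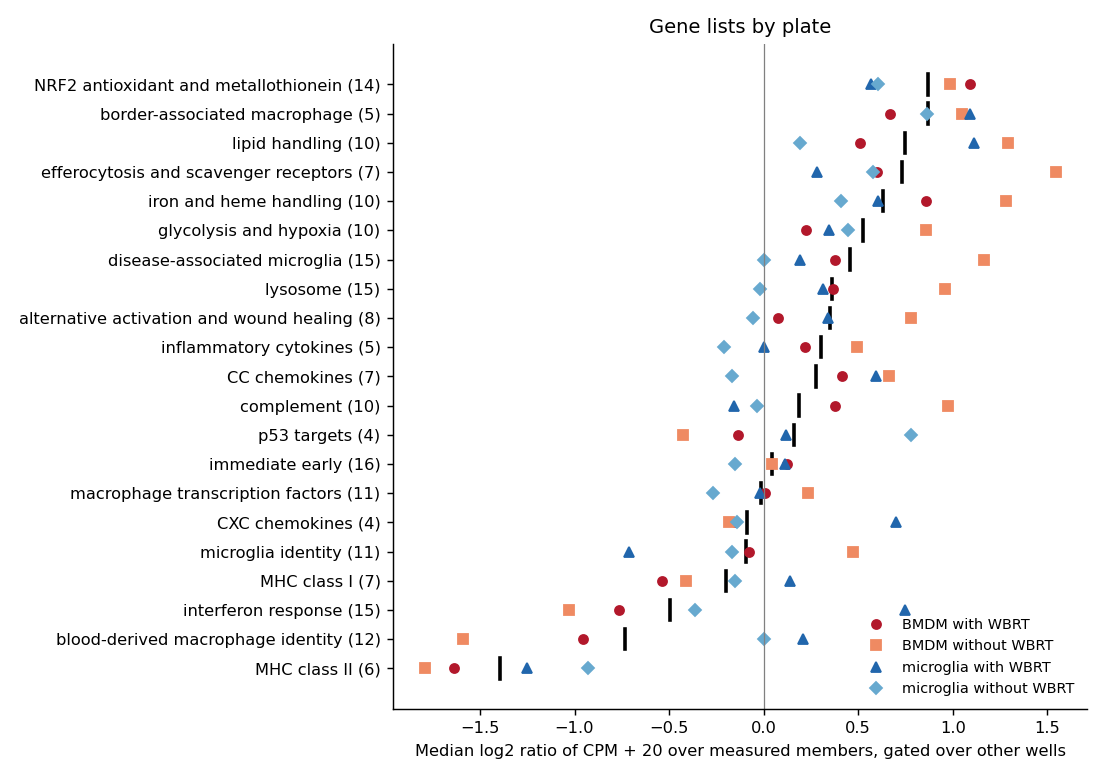
Median log2 ratio of CPM + 20, gated over other wells, over the measured members of each gene list, with the number of members in brackets. Each symbol is 1 plate and the black bar is the median of the members' means over plates. NRF2, border-associated, lipid and iron lists lie above 0 on all 4 plates, the MHC class II list below 0 on all 4, and the blood-derived macrophage list is below 0 in BMDM plates and at or above 0 in microglia plates. In microglia with and without WBRT, 1 other well held 57.4% and 77.9% of the other wells' counts of the class II gene Cd74.

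Gated wells could be split by the genes that passed them. On the plates with WBRT, wells that pass on Slc40a1, Igf1 and Ccl8 without help from Hmox1 (33 in BMDM, 43 in microglia) were set beside gated wells that pass only with Hmox1 (24 and 35), a split chosen after the data were seen. Over the mean of the 2 plates, 83 of 2563 measured genes passed 1 (3.24%) and 247 were below -1 (9.64%). Hmox1 itself stood at 4996 against 5345 CPM in BMDM and 10314 against 2548 CPM in microglia.

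In microglia with WBRT, wells passing without Hmox1 were low in microglia genes. Siglech, a sialic acid receptor of microglia, stood at 26.5 against 507 CPM, Tmem119 at 70.7 against 653 CPM and P2ry12 at 124 against 475 CPM, and 11 measured identity genes had a median of -1.28. Sparc, a matrix protein of microglia, stood at 1123 against 3839 CPM. The other microglia wells of that plate held 468 CPM of Siglech and 868 CPM of Tmem119. In BMDM with WBRT the identity genes had a median of 0.09. Border-associated genes were higher in wells passing without Hmox1, with medians of 0.42 in BMDM and 1.84 in microglia, though with the gate at 2000 CPM the medians were -0.04 in BMDM and 0.88 in microglia, and with a gate of 5 counts 0.97 in microglia. Mrc1 stood at 1023 against 420.3 CPM in BMDM and 292 against 41.8 CPM in microglia, and Folr2 at 297 against 89.6 and 194 against 36.5 CPM. Lpl stood at 2192 against 331 CPM in BMDM and 2576 against 701 CPM in microglia, Wfdc17, a secreted protein gene of activated macrophages, at 1638 against 349 and 1326 against 303 CPM, and the glutathione peroxidase gene Gpx3 at 231 against 47.2 and 398 against 73.1 CPM. Prdx1 stood at 2532 against 1220 and 4944 against 1040.1 CPM.

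In the other direction, immediate early and inflammatory genes were lower in the wells passing without Hmox1, chiefly in microglia. Of 16 measured immediate early genes 15 had means below -1 over both plates, with a median of -2.68 in microglia and -0.42 in BMDM. The microglia median was -1.36 with the gate at 500 CPM and -1.17 at 2000 CPM. Ier2 stood at 177 against 1729 CPM in microglia and 357 against 756 CPM in BMDM. The cytokine gene Il1b stood at 44.2 against 2479 CPM in microglia and 855 against 1183 CPM in BMDM, and Nfkbiz, a regulator of NF-kB targets, at 115 against 2123 and 398 against 473 CPM. Malat1, a nuclear RNA, moved with this split: wells with under 1000 CPM of it were 38 of 43 against 16 of 35 in microglia and 18 of 33 against 5 of 24 in BMDM, and its pooled level was 353 against 4647 CPM in microglia and 3442 against 3937 CPM in BMDM. Xist, another nuclear RNA, stood at 17.7 against 716 CPM in microglia. Median depth was 2227 against 2945 counts in microglia and 4076 against 7643 in BMDM. The part of Malat1 level and depth in these differences was not tested.

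**Figure D5:**
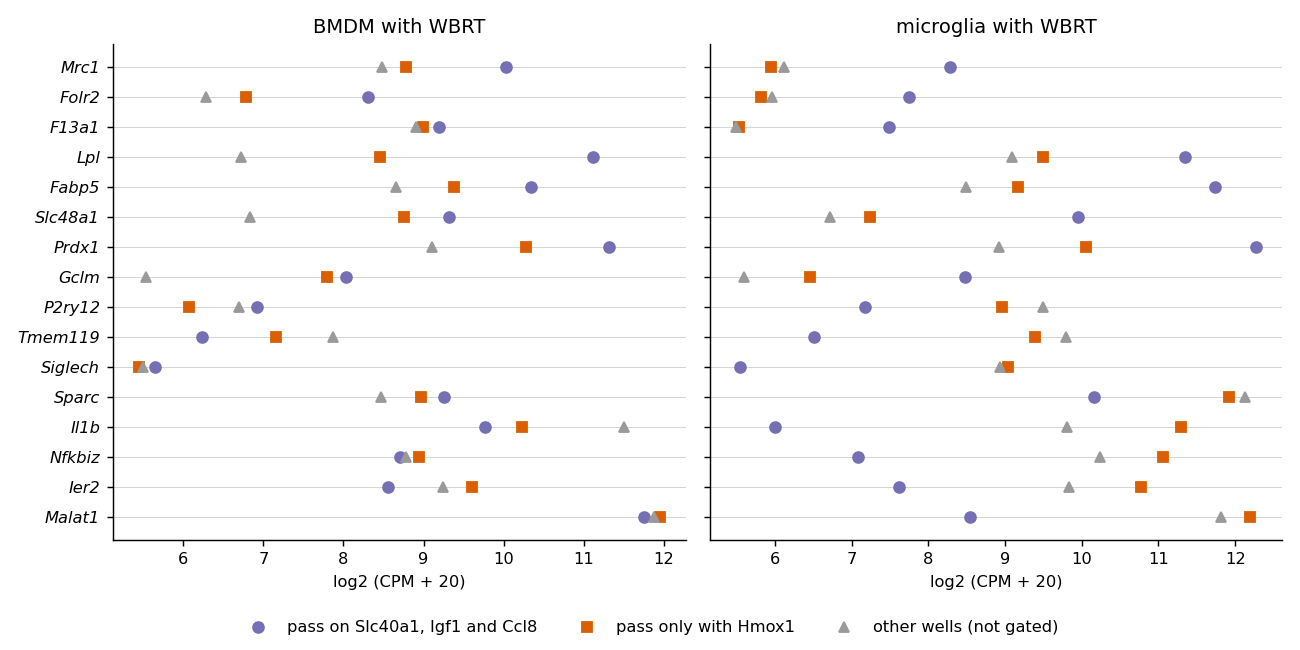
Pooled level, as log2 of CPM + 20, of 16 genes in gated wells that pass on Slc40a1, Igf1 and Ccl8 (circles), gated wells that pass only with Hmox1 (squares) and other wells (triangles) of the plates with WBRT. In microglia the circles stand apart for nearly every gene, with low Siglech (26.5 CPM), Il1b (44.2 CPM) and Malat1 (353 CPM), while in BMDM the 3 kinds lie closer.

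Between gated wells with and without WBRT, BMDM differed by over 1 in log2 ratio in 117 of 1978 genes upward (5.92%) and 79 downward (3.99%), and microglia in 200 of 2259 upward (8.85%) and 294 downward (13%). With 1 plate per group these are differences between libraries. The 7 measured border-associated genes were all past 1 in gated BMDM wells with WBRT (median 1.59), and the other BMDM wells had a median of 1.88. Pf4 stood at 914 CPM in gated BMDM wells with WBRT and 41.2 CPM in those without. Interferon genes were lower with WBRT, with 4 of 7 past the fold in BMDM (median -1.36, other wells -0.74) and 7 of 13 in microglia (median -1.12, other wells -2.05). Ifitm3, an interferon-induced membrane protein, stood at 278 CPM in gated BMDM wells with WBRT against 894 CPM without, and at 91.9 against 857 CPM in gated microglia wells. Proliferation genes were lower in gated microglia wells with WBRT, with 8 of 9 past the fold (median -2.62), against a median of -0.98 in other microglia wells. Among the 24 gated wells without WBRT, 1 well held 51.4% of the counts of Pcna, 47.8% of Hmgb2 and 50% of the 10 counts of Mki67. The NRF2 list had medians of 0.36 in gated BMDM wells (other wells 0.36) and 0.53 in gated microglia wells (other wells 0.08). The gated wells without WBRT held little Igf1 and Ccl8, so these comparisons set wells of different make-up side by side.

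Depth and RNA content differed by plate, and in part by gate. Mitochondrial genes took a median of 3.82% of counts in gated and 7.89% in other wells of microglia with WBRT. On the other plates they took 6.93% against 6.19%, 10.4% against 7.82% and 9.26% against 8.87%, in plate order. The median depth of gated against other wells was 6355 against 8845 counts in BMDM with WBRT, 5197 against 3883 in BMDM without WBRT, 2359 against 2362 in microglia with WBRT and 4352 against 4462 in microglia without WBRT. ERCC took a median of 30.3% of counts in gated and 30.6% in other wells of microglia with WBRT, and 5.12% to 9.77% in gated wells of the other plates. Wells with under 1000 CPM of Malat1 were 23 of 57 gated against 31 of 205 other wells in BMDM with WBRT, and 54 of 78 against 51 of 73 in microglia with WBRT. Neutrophil markers summed to 263 to 350 CPM in gated wells, against 199 to 475 CPM in other wells. In microglia with WBRT, erythroid markers summed to 191 against 10.6 CPM and astrocyte markers to 128 against 1851 CPM. Few wells of that plate reached 3 counts and 1000 CPM of these markers. For erythroid markers they were 1 of 78 gated and 0 of 73 other wells. For astrocyte markers they were 2 of 78 gated and 1 of 73 other wells. Endothelial and oligodendrocyte markers reached 78.2 and 85.3 CPM in gated wells. The found markers of T, NK and B cells, platelets, neurons, pericytes and tumor epithelium each summed to at most 31.7 CPM in gated wells of every plate. Among the 384 well names shared by all plates, 30 were gated on more than 1 plate, and no plates shared a column of identical values.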

How the data were processed

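Per the labels, single cells were sorted into 384-well plates and processed by a plate method with UMIs; the genome build GRCm38 is taken from the submitters' processing notes, while the sources used here name no aligner, counter or annotation. The deposited tables hold estimated counts (expected counts) per gene and well, not normalized. Of nonzero values, 99.5% lay within 0.0101 of the correction for 4096 possible identifiers, and the observed UMIs recovered from it were used for thinning (fixed seed).

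Gated and other wells were summed per plate and divided by endogenous counts without mitochondrial and gate genes. No test was made: with 1 plate per group there is no replicate, and the gate chose the wells. Intervals are exact (95%) and cover counting error only. Rn45s, at 3923 to 21712 CPM, was left out of the genes measured. Of 286 list symbols 282 were found, 4 of them only through RefSeq synonyms. Of the markers of other cell types, those found were 5 of 8 for neutrophils, 4 of 7 for T cells, 3 of 5 for B cells, 2 of 6 for erythroid cells, 4 of 5 each for oligodendrocytes and endothelium, 2 of 4 for neurons, 3 of 4 for pericytes and 3 of 6 for tumor epithelium, and all for the other types. The members, gene lists and comparisons were chosen with earlier results of these data known. Named genes were the 15 highest and 15 lowest means among measured genes that went 1 way on all plates and had a UMI in 20% of wells of the higher side, without ribosomal protein, microRNA and numbered predicted genes, plus list members. The split of gated wells by Hmox1, and its named genes, were chosen after seeing the data. On simulated Poisson counts, all 50 genes set at each of 4 sizes had the sign they were given, and a set log2 ratio of 2 gave a median of 1.78, lowered by the pseudocount of 20 CPM. Computation used Python 3.11.15, numpy 2.4.6, pandas 2.3.3 and scipy 1.17.1.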

Additional observations from a re-analysis of the deposited data

Results flagged for a closer look

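Between the sorts, 3 gene lists and 1 gene had opposite directions in gated over other wells, and these differences between sorts were not tested. The complement list had plate medians of 0.38 in BMDM with WBRT and 0.98 in BMDM without WBRT, and of -0.16 in microglia with WBRT and -0.04 in microglia without WBRT. The p53 target list had medians of -0.13 and -0.43 in BMDM with and without WBRT, and of 0.12 and 0.78 in microglia with and without WBRT. Macrophage transcription factors had 0.01 and 0.23 in BMDM, against -0.02 and -0.27 in microglia, with WBRT first in each pair. Sparc, a matrix protein gene of microglia, had log2 ratios of 0.65 and 1.01 in BMDM, against -0.65 and -0.52 in microglia, with WBRT first in each pair. Outside the kept wells, 8 of the 15 wells of microglia with WBRT that were left out for their ERCC share also met the gate.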

How the results depend on the processing

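List values are median log2 ratios. Over 29 settings, 455 of 515 main values stayed within a set limit, 59 moved past it and 1 was called reversed. The limit was a set fold for counts and the SD over plates for lists. For values within the gate or for WBRT it was a set log2 difference. Reversals were called only for main values past a set size, so some of the 59 changed sign too. Microglia identity went from -0.09 to 0.47 against other wells without a gate count. Blood-derived macrophage identity went from -0.73 to 0.57 without BMDM with WBRT and 0.84 without BMDM without WBRT. The genes measured are set anew for the plates kept, so these values cover fewer members than the 12 of the main value. In microglia with and without WBRT only 3 and 2 members reached the limit for a measured gene. The values are thus not those of the same list, and the change of the 12 members was not tested. Gated wells were 108 at a minimum of 3000 counts, 83 without Hmox1 in the gate, 99 without low-Malat1 wells and 127 at 2000 to 10000 counts. With the gate at 500 CPM, 22 genes were higher, border-associated genes gave 0.62 and NRF2 0.55. At 2000 CPM, 71 were higher and 105 lower, with border-associated 1.22, NRF2 1.20 and, for WBRT in microglia, 0.88 for border-associated genes. Without Hmox1, 89 were higher and 210 lower, with microglia identity -0.72, border-associated 1.25 and NRF2 1.22. Border-associated genes gave 1.20 with wells weighted alike, 1.23 at a pseudocount of 5, 0.65 at 50, 0.66 with no filter, 0.67 without low-Malat1 wells and 1.18 at 2000 to 10000 counts. Lower genes were 42 at a pseudocount of 5 and at 2000 to 10000 counts. A pseudocount of 50 gave 23 higher and 11 lower. A filter of 200 CPM gave 28 higher, 11 lower, iron 1.02, and interferon genes with WBRT -1.91 in BMDM and -1.65 in microglia. With no filter iron gave 0.21. Thinning gave 84 higher, 94 lower, NRF2 1.18 and border-associated genes with WBRT in microglia 2.15. Against other wells without a gate count, 93 were higher and 47 lower, with microglia identity 0.47, iron 1.22 and class II -1.93. Without low-Malat1 wells, 18 were higher, NRF2 gave 0.50 and class II -0.98. Without the well richest in Cd74, an alternative chosen after seeing the data, class II gave -0.96. Inflammatory cytokines turned sign at 2000 CPM (-0.50), without Hmox1 (-1.27), with no filter (-0.15), thinned (-0.29) and at 2000 to 10000 counts (-0.47).

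Within the gate, border-associated genes in BMDM gave -0.042 at 2000 CPM. In microglia they gave 0.88 at 2000 CPM, 0.97 at 5 counts, 1.33 with wells weighted alike and 1.26 at 2000 to 10000 counts. Immediate early genes in microglia gave -3.44 at ERCC under 25%, -1.36 at 500 CPM and -1.17 at 2000 CPM. Leaving out each plate in turn gave 38 to 59 higher genes and 9 to 47 lower genes, blood-derived macrophage identity -0.97 to 0.84 and iron 0.50 to 1.07. The lower genes were 9 without BMDM without WBRT. The macrophage list, over the fewer members then measured, was above 0 when either BMDM plate was left out. With mitochondrial genes in the totals, also chosen after seeing the data, 178 wells were gated. No paired analysis was possible because each group is 1 plate and no test was made.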

Other observations

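Over single wells, Slc40a1 followed Slc48a1 most closely, with a mean Spearman correlation over the 4 plates of 0.35, and Ccl8 followed Sepp1, a selenium transport gene, at 0.26. The wells of a plate share library and depth, and these values are descriptions.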
